A study of Mus musculus with 32 samples.

Results

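Aquaporins are the channels that let water, and in some members glycerol, cross cell membranes, and the vasopressin type 2 receptor, encoded by Avpr2, sets how much water the collecting duct takes back. The genes described here are the 7 aquaporins Aqp1, Aqp2, Aqp3, Aqp4, Aqp6, Aqp7 and Aqp11 and the receptor gene Avpr2, which makes 8 of the 54532 genes in the count table. They were chosen by name as the kidney aquaporins and the renal vasopressin receptor. RNA was sequenced from kidneys of C57BL/6 mice aged 6 to 8 weeks, an inbred laboratory strain, after a single injection of 20 mg/kg cisplatin, a platinum chemotherapy drug that injures the kidney tubule. Kidneys of male and of female mice were taken at Day 0 and at 2, 3 and 5 days after the injection, with 4 mice in each of the 8 groups and 1 library per mouse, 32 in all. The study describes the Day 0 animals as healthy, and the labels of the Day 0 females name cisplatin as the treatment while those of the Day 0 males name none. The labels name no further allele or agent in any group.

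In the kidney, vasopressin binds its type 2 receptor on principal cells of the collecting duct, and the rise in cyclic AMP that follows brings Aqp2 channels to the luminal membrane and raises transcription of the Aqp2 gene. Water then leaves the cell through Aqp3 and Aqp4 in the basolateral membrane. Aqp1 carries most of the water reabsorbed in the proximal tubule and the descending thin limb. Aqp7, a glycerol channel, and Aqp11, an intracellular member, belong to the proximal tubule, and Aqp6 sits in vesicles of the acid-secreting intercalated cells. Loss of concentrated urine is a known feature of cisplatin injury.

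The regulatory sequences shown are short stretches of the Aqp2, Aqp3 and Aqp7 promoters, printed because Aqp2 is the member under vasopressin and cyclic AMP control and because these promoters hold motifs tied to that control or to the start of transcription. They come from RefSeq (GRCm38.p6), which holds the stretch from 250 bases before to 50 bases after a gene's start. The table matched 7 of the 8 genes, with 8 promoters because Aqp7 has a pair of starts, and Aqp4 was not matched. Capitals mark the motif searched on both strands.
Aqp2 with ACGTCA (the core of the cyclic AMP response element), chr15:99578832-99578861, plus strand: aggaaaacagagACGTCAatccttatctgg
Aqp2 with AGATAA, the motif of the GATA family of factors, on the opposite strand, chr15:99578842-99578871, plus strand: agacgtcaatccTTATCTggagtccattaa
Aqp3 with TATAAA (the TATA box), chr4:41098195-41098224, minus strand: gcaggctgagcgTATAAAgggcgccacctg
Aqp7 with AGATAA, chr4:41048251-41048280, minus strand: ctctggtcttagAGATAAgccagacacttg
The Aqp2 windows overlap, so the ACGTCA and GATA letters stand close together. Of all 32851 promoters of this length, 7.51% held ACGTCA, 11.2% held AGATAA and 13.6% held TATAAA on either strand. The full element TGACGTCA, which contains ACGTCA, was in 1.79% of all promoters and in 0 of the 8 member promoters. Of the 8 member promoters, 1 held ACGTCA (Aqp2), 2 held AGATAA (Aqp2 and Aqp7) and 2 held TATAAA (Aqp3 and, on the opposite strand, Avpr2). A match is a description of these letters and was not tested as a binding site.

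Some of the genes lie close together on the mouse genome (GRCm38, the build of the files). Aqp2 (chromosome 15, 99579055 to 99584547, plus strand) and Aqp6 (chromosome 15, 99601400 to 99605477, plus strand) are 16852 bases apart with Aqp5 between them. Aqp7 (chromosome 4, 41033074 to 41048139) and Aqp3 (chromosome 4, 41092722 to 41098183) share the minus strand at a distance of 44582 bases. Aqp1 lies on chromosome 6 (55336432 to 55348555, plus strand), Aqp11 on chromosome 7 (97724006 to 97738289, minus strand) and Avpr2 on chromosome X (73892102 to 73895502, plus strand). All 8 are protein-coding genes.

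Several libraries stood apart and bear on the results below. Libraries held 16502107 to 35961325 counts. Mitochondrial transcripts took 4.5% to 23.97% of counts in the libraries of Day 0, Day 2 and Day 3. They took 42.5% to 79.8% in the 4 male libraries of Day 5, and 9.3% to 77.9% in the 4 female ones, where mouse 2 was the highest. Xist, the RNA of the inactive X chromosome, was at 4153 counts in the library labelled male Day 5 mouse 1, which also had 387 counts of Y-linked genes, while the other male libraries of that day had 59 to 260 of Xist, so its counts go against a purely male label. The female Day 0 libraries, which serve as controls of every female change, held 221, 5, 44 and 66 counts of Y-linked genes, and all later female libraries held 0. Male Day 0 mouse 4 held 242 counts of Xist, where the other male libraries of Day 0, Day 2 and Day 3 held 0 to 50. Hepatocyte markers summed to 10874 CPM (counts scaled to library size) in female Day 0 mouse 2 and to 392 to 616 in the remaining mice of that group. For the tested aquaporins, some values without 1 of these libraries are given below. None are given for the marker and pathway lists or for the other aquaporins and receptors. Markers of the tubule segments were present throughout, with at least 11 of 12 proximal tubule, 11 of 11 principal cell and 10 of 10 intercalated cell genes above 3 reads in every library. In whole kidney RNA, fewer cells of a type and less RNA per cell cannot be told apart.

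Levels between genes can be compared only per length, for which the deposited FPKM, counts scaled to gene length and library size, served. At Day 0 the order of mean FPKM was the same in both sexes, with Aqp2 first, followed by Aqp1, Aqp3, Aqp6, Aqp7, Aqp11, Aqp4 and, far below, Avpr2. In male Day 0 kidneys Aqp2 stood at 331 ± 137 FPKM (SD, n = 4) and Aqp1 at 194 ± 77.5, and Aqp2 was the higher of the pair in 3 of 4 mice. In female Day 0 kidneys the values were 620 ± 247 and 179 ± 48.1, with Aqp2 higher in 4 of 4 mice. Aqp6 followed at 12.6 ± 3.47 FPKM in males, ahead of Aqp7 at 8.72 ± 1.67 in 4 of 4 mice.

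The order changed with time. In males at Day 3 Aqp1 (360 ± 9.90 FPKM) stood above Aqp2 (284 ± 35.6 FPKM) in 4 of 4 mice. At Day 5 Aqp2 reached 843 ± 245 FPKM against 123 ± 83.3 for Aqp1, again in 4 of 4 mice, and Aqp4 (12.05 ± 3.23 FPKM) had passed Aqp7 (7.33 ± 2.55 FPKM) in 4 of 4. Aqp6 and Aqp3 were not separated at male Day 5, since Aqp6 was the higher in only 2 of 4 mice. In females Aqp2 kept the first place at every time, with 354 ± 194 FPKM at Day 2, 398 ± 40.04 at Day 3 and 472 ± 146 at Day 5. It stood above Aqp1 in 3 of 4 female mice at Day 2, 4 of 4 at Day 3 and 3 of 4 at Day 5. These orders are descriptions, with no test.

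**Figure D1:**
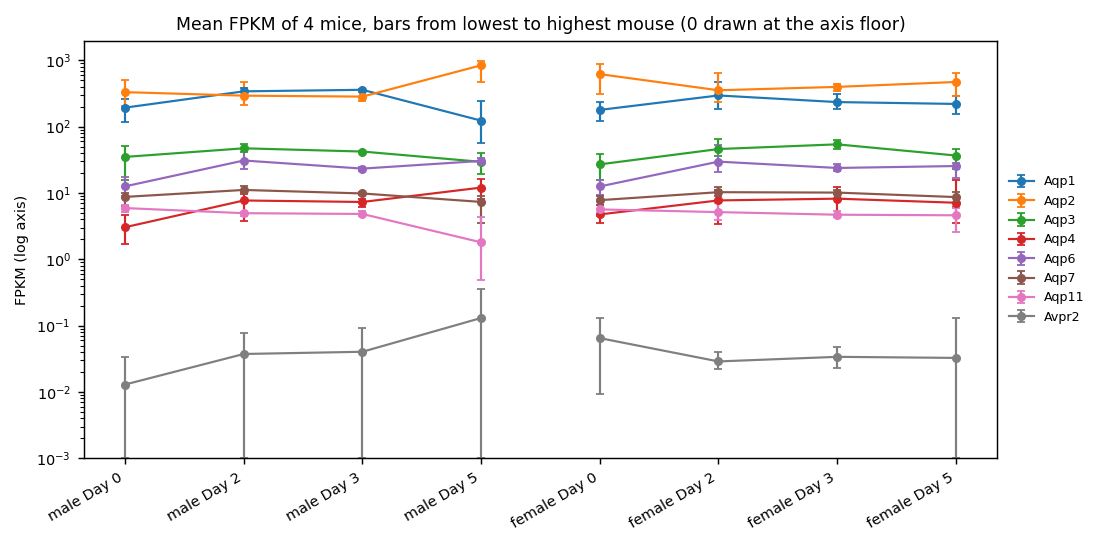
Mean FPKM (log axis) of the 8 genes in each of the 8 groups, with bars from the lowest to the highest of 4 mice and 0 drawn at the axis floor. Aqp1 and Aqp2 cross in males between Day 0 and Day 2 and again between Day 3 and Day 5, and Avpr2 lies far below every aquaporin in every group.

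Each day was compared with Day 0 within a sex, to follow the injury over time. Differences were tested with edgeR's quasi-likelihood test over all genes with Benjamini-Hochberg adjustment, and a gene was called changed at an adjusted p under 0.05. Avpr2 did not pass the filter on low counts, so 7 of the 8 genes were tested in each comparison. In males 1 of 7 rose at Day 2 (Aqp6), 3 at Day 3 (Aqp1, Aqp4 and Aqp6) and 3 at Day 5 (Aqp2, Aqp4 and Aqp6), and edgeR called 0 lower on any of these days, while DESeq2 called Aqp11 lower at Day 5. Of all genes tested in males, 1.81% rose and 1.35% fell at Day 2 (3.16% called), 11.4% rose and 13.1% fell at Day 3 (24.5% called), and 8.98% rose and 10.2% fell at Day 5 (19.2% called).

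In females 1 of 7 rose at Day 3 (Aqp6), where 1.26% of all genes rose and 4.28% fell (5.54% called). At female Day 2 edgeR called 0 of 7 against 1.93% of all genes, with 2 at an unadjusted p under 0.05 and 1 by DESeq2. At female Day 5 it called 0 of 7 against 0.258% of all genes, with 1 at an unadjusted p under 0.05 and 1 by DESeq2. Between Day 3 and Day 5 in males 3 of 7 rose (Aqp2, Aqp4 and Aqp6) and 1 fell (Aqp1), where 20.9% of all genes rose and 17.1% fell (37.9% called). In females the same step gave 0 of 7 and 0% of all genes with edgeR, 1 of 7 at an unadjusted p under 0.05 and 0 by DESeq2. Under the stricter rule that also asks for a log2 fold change beyond 1.5, 1 of 7 passed in males at Day 5 (Aqp4) against 7.53% of all genes, and 2 of 7 between male Day 3 and Day 5 (Aqp1 and Aqp2) against 9.64%. Under that rule 0 of 7 passed in males at Day 2 and Day 3 and in females at Day 3, against 0.716%, 3.72% and 2.48%, and 0 of 7 between the sexes at Day 3 against 1.93%. Comparisons with the same Day 0 mice share their controls, and so do Day 3 and Day 5 comparisons that share a group.

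**Figure D2:**
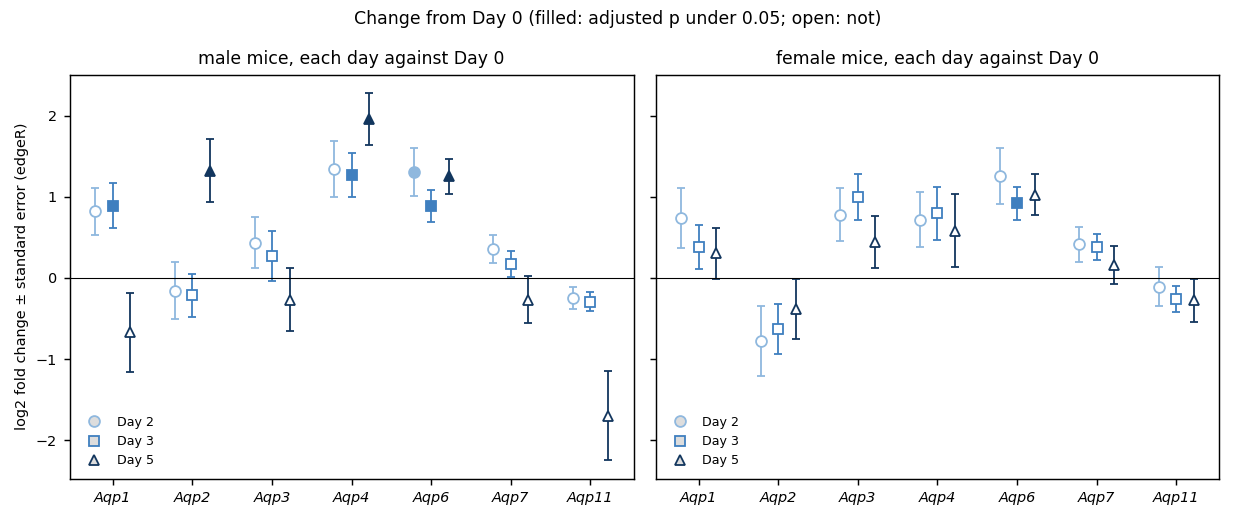
Log2 fold change from Day 0 with its standard error for the 7 tested genes, males on the left and females on the right, filled where the adjusted p was under 0.05. Aqp6 lies above 0 at every time in both sexes, while in males at Day 5 Aqp2 lies at 1.32 (passed) and Aqp11 at -1.70 (not passed).

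Aqp6, the anion-permeable channel of intercalated cells, rose in males on each of the 3 later days and in females at Day 3. Male Day 0 mice had 29.6, 30.6, 21.5 and 43.1 CPM, and male mice had 77.4, 55.6, 55.5 and 117 CPM at Day 2, 57.9, 60.6, 60.2 and 52.4 at Day 3, and 78.0, 67.0, 78.0 and 61.6 at Day 5. Every later male value lay above the highest Day 0 value. The log2 fold change in males was 1.31 ± 0.29 (SE) at Day 2 (adjusted p = 0.0491), 0.89 ± 0.19 at Day 3 (adjusted p = 0.0175) and 1.26 ± 0.22 at Day 5 (adjusted p = 0.00967).

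Female Aqp6 levels were 39.1, 34.9, 22.1 and 26.3 CPM at Day 0, then 132, 55.4, 56.2 and 50.2 at Day 2, 65.9, 53.7, 60.6 and 54.0 at Day 3, and 71.0, 39.3, 68.3 and 71.5 at Day 5. Day 0 did not overlap any later day, although female Day 5 mouse 2, at 39.3 CPM, was close to the highest Day 0 mouse at 39.1. The log2 fold change was 1.26 ± 0.34 at Day 2 (adjusted p = 0.0665), 0.92 ± 0.20 at Day 3 (adjusted p = 0.0479) and 1.03 ± 0.26 at Day 5 (adjusted p = 0.138), so that with edgeR Day 3 alone passed in females. With DESeq2 Day 2 and Day 5 passed as well (adjusted p = 0.0120 and 0.0188), as they did in the fit over 8 groups (adjusted p = 0.00254 and 0.0190).

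The intercalated cell list was read beside Aqp6. In males 1 of its 10 genes rose at Day 2 (Adgrf5, which endothelium also expresses), 1 rose and 1 fell at Day 3, and 7 rose and 0 fell at Day 5. Of all genes 3.16%, 24.5% and 19.2% were called on those days, so 2 of 10 at Day 3 was under the share of all genes. Those 7 included the proton pump subunit Atp6v0d2 (log2 fold change 1.46), the bicarbonate exchanger Slc4a9 (1.74) and the intercalated cell transcription factor Foxi1 (0.71). Another pump subunit, Atp6v1g3, fell at Day 3 in males (by 1.09 on the log2 scale, adjusted p = 0.0209) and in females (by 1.14, adjusted p = 0.0479). The list's median log2 fold change in males was 0.24 at Day 2, -0.18 at Day 3 and 0.77 at Day 5, beside 0.03, 0.02 and 0.04 over all genes.

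The Aqp6 call in males at Day 2 was lost without male Day 0 mouse 1 or 2 or any single Day 2 mouse (adjusted p 0.0871 to 0.131), and at Day 3 without male Day 3 mouse 1, 2 or 3 (0.0547 to 0.0614). At male Day 5 it held without each of the 8 mice in turn. From male Day 3 to Day 5 Aqp6 rose by a further 0.39 ± 0.12 on the log2 scale (adjusted p = 0.0267), a call lost when any single male Day 3 mouse, or mouse 3 of male Day 5, was left out. It was also lost with no filter (adjusted p = 0.182) and in the fit over 8 groups (adjusted p = 0.438). The female Day 3 call was lost in 7 of 8 such fits, all but the one without female Day 0 mouse 4 (0.0623 to 0.168), and without the hepatocyte-rich female Day 0 mouse 2 the log2 fold change was 0.99 (adjusted p = 0.137). At female Day 5 it was 1.19 without the mitochondria-rich mouse 2 (adjusted p = 0.1004).

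**Figure D3:**
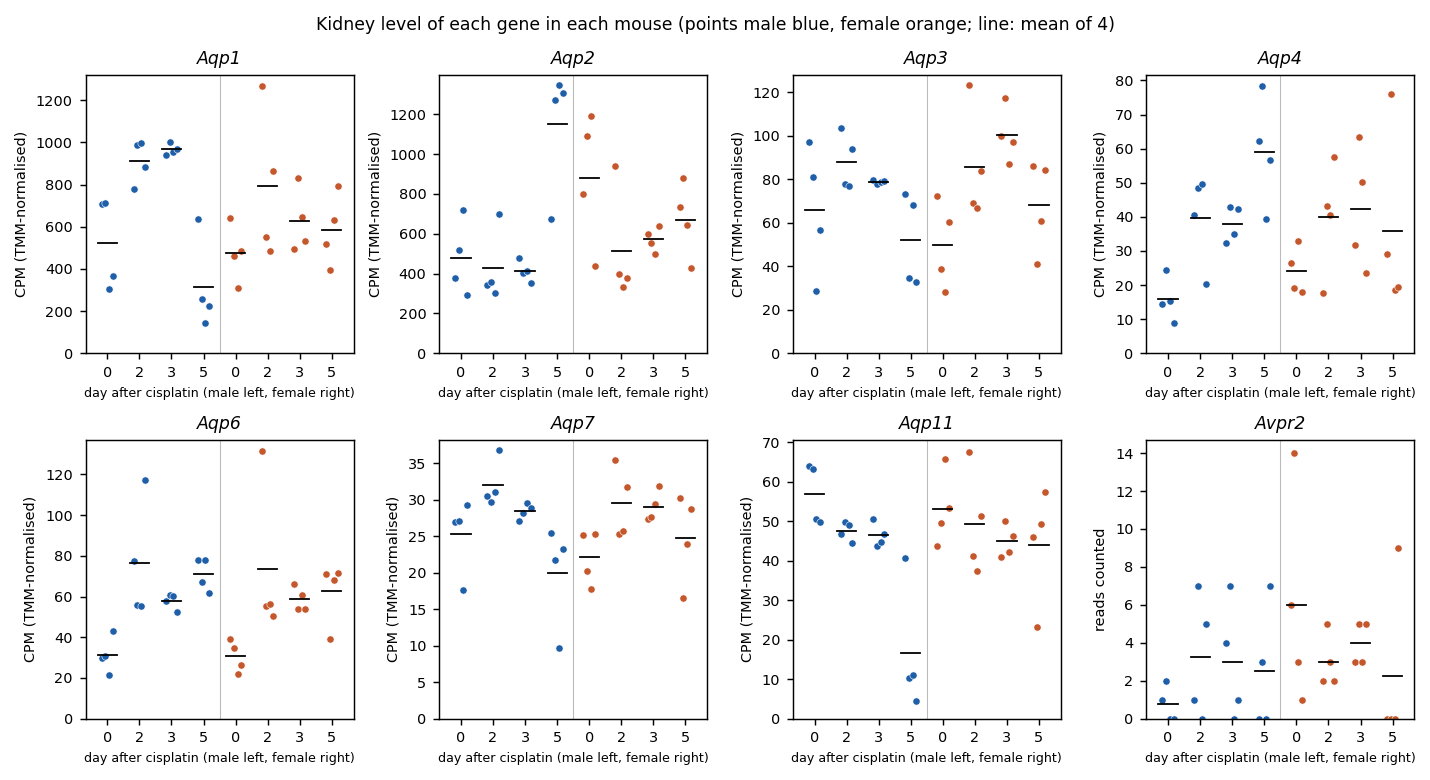
Level of each gene in each of the 32 mice, as TMM-normalised CPM for the aquaporins and as reads counted for Avpr2, with lines at the mean of 4. Later Aqp6 points lie above all Day 0 points of the same sex, 3 of the 4 male Day 5 points of Aqp11 lie between 4.35 and 10.96 CPM, and Avpr2 stays at 14 reads or fewer.

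Aqp2, the vasopressin-regulated water channel, rose in males at Day 5, and it passed in no other comparison with Day 0. Male mice had 377, 518, 719.7 and 295 CPM at Day 0 and 672, 1270.1, 1347 and 1305 CPM at Day 5. The groups overlapped only through the library labelled male Day 5 mouse 1, at 672 CPM, and male Day 0 mouse 3, at 719.7. The log2 fold change was 1.32 ± 0.39, a 2.50-fold rise (adjusted p = 0.042).

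In between, male levels stayed within the Day 0 range. They were 345, 358, 302 and 700.4 CPM at Day 2 and 479, 404, 413 and 352 CPM at Day 3, with log2 fold changes of -0.16 ± 0.35 and -0.22 ± 0.27 that did not pass. From Day 3 to Day 5 the groups did not overlap and Aqp2 rose 2.98-fold (log2 1.57 ± 0.26, adjusted p = 0.00396). That rise held in all 8 fits without 1 mouse.

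Female Aqp2 levels were 800.3, 1091, 1192 and 437 CPM at Day 0. They were 939, 399, 335 and 377 at Day 2, 600.1, 555, 499.8 and 637 at Day 3, and 732, 879.7, 646 and 426 at Day 5. Each later group overlapped Day 0, whose own values spread widely, and the log2 fold changes of -0.78 ± 0.43, -0.63 ± 0.31 and -0.38 ± 0.37 did not pass. Without the hepatocyte-rich female Day 0 mouse 2 the changes were -0.64 at Day 2, -0.51 at Day 3 and -0.26 at Day 5, and none passed. Leaving out female Day 0 mouse 4 moved the Day 3 change to -0.85, which then passed (adjusted p = 0.00892).

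The change of Aqp2 from Day 0 to Day 5 differed between males and females by 1.70 ± 0.53 on the log2 scale, which did not pass with edgeR (adjusted p = 0.148) and passed with DESeq2 (1.73, adjusted p = 0.0314). With edgeR it passed without the library labelled male Day 5 mouse 1 (1.89, adjusted p = 0.0328). The male Day 5 rise was 1.53 without that library (adjusted p = 0.0117), and was lost without male Day 0 mouse 1, 2 or 4 or male Day 5 mouse 2, 3 or 4 (adjusted p 0.0742 to 0.122).

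Genes of the same cells moved with Aqp2 in males at Day 5. Of 11 principal cell markers 6 rose and 0 fell against Day 0, where 8.98% of all genes rose, among them the potassium channel subunit Kcne1 (log2 fold change 1.29) and the ammonia channel Rhcg (1.01). Against Day 3, 8 of 11 rose and 0 fell, where 20.9% of all genes rose, with Rhcg at 1.77. The summed principal cell level was 602 to 844 CPM in the male Day 5 libraries against 355 to 555 at Day 0 and 333 to 353 at Day 3.

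Other cells moved with Day 5 too. Of all genes 8.98% rose and 10.2% fell at male Day 5 against Day 0, and 20.9% rose and 17.1% fell since Day 3. Of 12 proximal tubule markers 4 fell and 0 rose against Day 0, and their summed level was 5380.2, 1242, 656 and 567 CPM in the male Day 5 mice, against 12302 to 14815 at Day 0. Adipocyte markers summed to 1012 to 5201 CPM at male Day 5 against 295 to 381 at Day 3, with 9 of 9 rising. Against Day 0, where they summed to 537 to 2908 CPM, 0 of 9 rose with edgeR. Urothelial markers summed to 39.1 to 183 CPM at male Day 5, 23.1 to 36.5 at Day 3 (5 of 8 rising since) and 28.0 to 51.9 at Day 0 (3 of 8). Leukocyte markers summed to 46.0 to 329.5 CPM at male Day 5, 32.6 to 52.3 at Day 3 (6 of 8 tested rising since) and 38.1 to 109.8 at Day 0 (2 of 9). Erythroid markers summed to 251 to 5576 CPM at male Day 5, 19.97 to 34.9 at Day 3 and 483 to 2171 at Day 0, with 6 of 7 tested rising since Day 3 (median log2 fold change 10.98) and 1 of 6 tested against Day 0. Of 7 distal convoluted tubule markers 5 rose since Day 3, and 0 were called by edgeR against Day 0, with 1 at an unadjusted p under 0.05. With the mitochondrial transcripts left out of the counts, Aqp2, Aqp4 and Aqp6 all still passed at male Day 5, and the part of these cells in the 3 values was not tested.

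Aqp4, a basolateral water channel of principal cells, rose in males at Day 3 and Day 5. Male mice had 14.5, 24.3, 15.4 and 8.85 CPM at Day 0, 40.6, 48.6, 49.5 and 20.2 at Day 2, 32.2, 42.8, 34.8 and 42.2 at Day 3, and 62.2, 78.3, 39.3 and 56.7 at Day 5. Day 0 overlapped only Day 2, through male Day 2 mouse 4. The log2 fold change was 1.34 ± 0.35 at Day 2 (adjusted p = 0.0618, and 0.00467 with DESeq2), 1.27 ± 0.27 at Day 3 (adjusted p = 0.0168) and 1.96 ± 0.32 at Day 5 (adjusted p = 0.00872), a 3.89-fold rise.

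The Day 5 rise of Aqp4 passed in all 8 fits without 1 mouse and under all 6 other settings tried, and the Day 3 call was lost without male Day 3 mouse 2, 3 or 4 (adjusted p 0.0512 to 0.0548). From Day 3 to Day 5 Aqp4 rose by 0.73 ± 0.20 on the log2 scale (adjusted p = 0.0194), which was lost without male Day 3 mouse 1 or 3 or male Day 5 mouse 2 (0.0536 to 0.0602) and in the fit over 8 groups (0.2498).

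Female Aqp4 levels were 26.5, 19.1, 33.0 and 17.9 CPM at Day 0, and 17.7, 43.3, 40.7 and 57.7 at Day 2. They were 31.8, 63.4, 50.1 and 23.5 CPM at Day 3 and 29.1, 76.1, 18.4 and 19.5 at Day 5. The groups overlapped each time and no day passed (log2 0.72 ± 0.34, 0.79 ± 0.33 and 0.58 ± 0.45). The high female Day 5 value belonged to mouse 2, whose mitochondrial share of 77.9% was like that of 3 of the male Day 5 mice, and without it the log2 change turned to -0.13. The difference between the sexes in the change to Day 5 was 1.38 ± 0.58 (adjusted p = 0.272) with all mice and 2.06 without female Day 5 mouse 2 (adjusted p = 0.0409).

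Aqp3, the basolateral channel that also passes glycerol, did not pass in any comparison over time with edgeR. Male levels were 97.0, 80.8, 28.7 and 56.7 CPM at Day 0 and 79.4, 77.8, 78.9 and 79.2 at Day 3, so that the Day 3 mice lay close together inside the Day 0 range. Female levels were 72.3, 38.8, 28.0 and 60.1 CPM at Day 0 and 99.999, 117, 87.0 and 97.0 at Day 3. The female groups did not overlap, with a log2 fold change of 0.99 ± 0.28 that missed with edgeR (adjusted p = 0.062) and passed with DESeq2 (1.03, adjusted p = 0.0127) and in the fit over 8 groups (1.01, adjusted p = 0.0200). With edgeR it passed without female Day 0 mouse 4 (1.10, adjusted p = 0.023), and it was 0.89 without female Day 0 mouse 2 (adjusted p = 0.169).

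At Day 2 Aqp3 stood at 76.7 to 103 CPM in males and 66.6 to 123 in females, and at Day 5 at 32.8 to 73.2 in males and 41.1 to 86.1 in females. From Day 3 to Day 5 the log2 change in males was -0.50 ± 0.25 (adjusted p = 0.137). It was -0.73 without the library labelled male Day 5 mouse 1 and then passed (adjusted p = 0.0186).

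Aqp1, the main water channel of the proximal tubule, rose in males at Day 3 and fell between Day 3 and Day 5. Male mice had 707, 711, 306 and 365 CPM at Day 0, 778, 989, 997 and 882 at Day 2, 939, 1003, 955 and 969 at Day 3, and 639, 258, 143 and 222 at Day 5. The Day 2 and Day 3 mice all lay above the highest Day 0 mouse, and 3 of the 4 Day 5 mice lay below the lowest. The log2 fold change was 0.82 ± 0.29 at Day 2 (adjusted p = 0.109, and 0.0369 with DESeq2), 0.89 ± 0.28 at Day 3 (adjusted p = 0.0477) and -0.67 ± 0.49 at Day 5 (adjusted p = 0.345). Between Day 3 and Day 5 Aqp1 fell by 1.54 ± 0.40 on the log2 scale, 2.90-fold (adjusted p = 0.0176).

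Female Aqp1 levels were 641, 459.8, 308 and 486 CPM at Day 0 and 1266, 551, 484 and 866 at Day 2. They were 494, 829, 648 and 532 CPM at Day 3 and 519, 397, 633 and 794 at Day 5. Every later day overlapped Day 0, and the log2 fold changes of 0.74 ± 0.37, 0.38 ± 0.27 and 0.30 ± 0.31 did not pass.

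Aqp1 is also a red cell and endothelial protein, so those markers were read beside it. Erythroid markers summed to 483 to 2171 CPM in male Day 0 mice and to 19.97 to 34.9 at Day 3, opposite to Aqp1, with 5 of 7 tested falling. Endothelial markers summed to 465 to 584 CPM at male Day 0 and 702 to 761 at Day 3, with 2 of 11 rising, and descending thin limb markers to 29.4 to 60.4 and 91.2 to 114, with 0 of 7 tested called by edgeR and 3 at an unadjusted p under 0.05. Of all genes 11.4% rose and 13.1% fell at male Day 3, so the endothelial count was near the share of all genes. From Day 3 to Day 5, where 17.1% of all genes fell, 8 of 12 proximal tubule markers fell with Aqp1 and 0 rose, with a median log2 fold change of -2.27, and their sum went from 8589 to 13156 CPM at Day 3 to 567 to 5380.2 at Day 5. Erythroid markers rose in that interval, as described for Aqp2, Aqp4 and Aqp6. The part of these markers in the results was not tested. The male Day 3 rise was lost with no filter (adjusted p = 0.0538), in the fit over 8 groups (0.0768) and without mitochondrial transcripts (0.0501). It was also lost without male Day 0 mouse 4 or any single Day 3 mouse (adjusted p 0.0707 to 0.109), and the fall to Day 5 without male Day 5 mouse 2 or 4 (0.0582 and 0.052). Without the library labelled male Day 5 mouse 1 that fall was larger, at -2.15 (adjusted p = 1.94e-05). Without the library labelled male Day 5 mouse 1 the Day 5 difference from Day 0 was -1.25 and passed (adjusted p = 0.0418).

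Aqp11, the proximal tubule member found inside the cell, was low in 3 of the 4 male Day 5 mice. Male mice had 63.9, 63.3, 50.5 and 49.96 CPM at Day 0, 46.7, 49.8, 49.0 and 44.5 at Day 2, 50.7, 43.6, 44.9 and 46.7 at Day 3, and 40.8, 10.2, 10.96 and 4.35 at Day 5. The Day 5 values of mice 2, 3 and 4 rested on 69, 68 and 31 reads. All 4 Day 5 mice lay below every earlier male mouse. With edgeR the log2 fold change of -1.70 ± 0.55 against Day 0 missed the threshold (adjusted p = 0.0555), as did -1.35 ± 0.52 against Day 3 (adjusted p = 0.0668). Both passed with DESeq2 (adjusted p = 0.0105 and 0.0246) and in 1 edgeR fit over all 8 groups (adjusted p = 0.000592 and 0.00399).

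The library labelled male Day 5 mouse 1, which had the lowest mitochondrial share of that group, also bore on the call. Without it the edgeR change of Aqp11 was -2.67 against Day 0 (adjusted p = 0.000875) and -2.39 against Day 3 (adjusted p = 2.85e-05). At male Day 3 the change of -0.29 ± 0.12 passed only without male Day 0 mouse 3 or 4 (adjusted p = 0.0264 and 0.0465). Female levels were 43.8, 49.7, 65.9 and 53.3 CPM at Day 0 and 46.1, 23.1, 49.4 and 57.5 at Day 5, where the lowest was again mouse 2 with its high mitochondrial share. The female change of -0.28 ± 0.27 did not pass, and it was -0.074 without mouse 2. Female mice at Day 2 held 37.3 to 67.5 CPM and at Day 3 41.0 to 49.97.

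The proximal tubule markers were read beside Aqp11 in the Day 5 mice. Their summed level was 5380.2 CPM in the library labelled male Day 5 mouse 1 and 567 to 1242 in the other 3, and 2804 in female Day 5 mouse 2 against 3666 to 8787 in the other 3 females. In males at Day 5, 4 of 12 markers fell against Day 0, where 10.2% of all genes fell. The fallen markers included the phosphate transporter Slc34a1 (log2 fold change -2.93) and the organic anion transporter Slc22a6 (-3.12). Their part in the Aqp11 values was not tested.

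**Figure D4:**
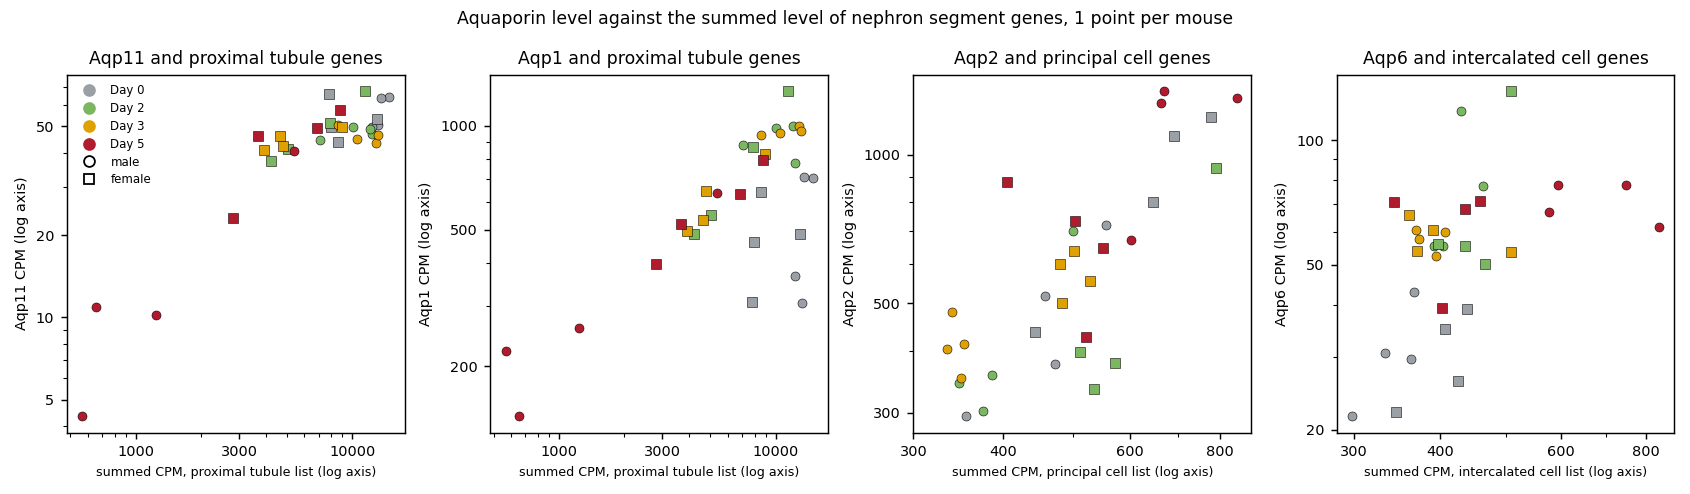
Level of Aqp11, Aqp1, Aqp2 and Aqp6 against the summed level of a list of segment genes (both axes log scale, CPM), 1 point per mouse, coloured by day, with circles for males and squares for females. Of the male Day 5 mice, 3 lie at the low end of both axes for Aqp11, with 4.35 to 10.96 CPM beside proximal tubule sums of 567 to 1242, and the Day 0 mice hold 21.5 to 43.1 CPM of Aqp6 beside intercalated cell sums of 298 to 439.

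Aqp7, the glycerol channel of the late proximal tubule and of fat cells, passed in no comparison with all mice. Male levels were 17.6 to 29.3 CPM at Day 0, 29.7 to 36.9 at Day 2, 27.1 to 29.6 at Day 3 and 9.67 to 25.4 at Day 5. Female levels were 17.8 to 25.3, 25.3 to 35.4, 27.3 to 31.9 and 16.5 to 30.2 CPM on the same days. The log2 fold change at Day 2 was 0.36 ± 0.18 in males and 0.41 ± 0.21 in females. At female Day 3 it was 0.38 ± 0.16, and it passed without female Day 0 mouse 4 (0.45, adjusted p = 0.0445). In male Day 5 mice 2, 3 and 4, adipocyte markers summed to 2855 to 5201 CPM, and Aqp7 stood there at 9.67 to 23.3 CPM.

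Avpr2, the receptor through which vasopressin acts on the collecting duct, was at the edge of detection. Its reads numbered 1, 2, 0 and 0 in the male Day 0 mice and 6, 14, 3 and 1 in the female Day 0 mice. At Day 2 males had 1, 7, 0 and 5 reads and females 2, 5, 3 and 2. At Day 3 they had 4, 7, 0 and 1, and 3, 5, 3 and 5, and at Day 5 they had 0, 3, 0 and 7, and 0, 0, 0 and 9. The median over 32 libraries was 2.5 reads and the total 99.

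No group stood apart at these counts, and differences in Avpr2 were not detectable. A count of 0 allows up to 3 counts, which is 0.0669 to 0.483 CPM over the 32 libraries, highest in male Day 5 mouse 3, an upper limit for counting error only. In the 30 alternative fits that kept it, the lowest unadjusted p of Avpr2 was 0.106, and the lowest adjusted p was 0.252 in the 22 that gave one.

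The annotation bears on how Avpr2 reads could be counted. All 3401 bases of the gene lie within L1cam and Arhgap4 on the opposite strand (GENCODE M21, GRCm38), and 2347 of its 2886 exonic bases (81.3%) overlap exons of Arhgap4. L1cam held 72 to 1871 reads per library and Arhgap4 0 to 283. The strand setting of the counting is not given in the sources used here, and without strand the reads of overlapping genes cannot be told apart, so the Avpr2 level is uncertain. The effect of this overlap was not tested.

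The list of 23 genes of the path from vasopressin to Aqp2 mixes genes that carry the signal with genes that damp it. The latter include phosphodiesterases and inhibitory G proteins, so counts over the list give no direction of signalling. Males showed 1 higher and 0 lower at Day 2 and 5 higher and 1 lower at Day 3. At Day 5 they showed 2 higher and 0 lower. Over all genes 3.16%, 24.5% and 19.2% were called on those days, so 6 of 23 at Day 3 was near the share of all genes and 2 of 23 at Day 5 was under it. With edgeR females showed 0 in either direction on each of these days, with 4, 7 and 0 genes at an unadjusted p under 0.05. Adcy6, the adenylyl cyclase that makes cyclic AMP in the collecting duct, rose in males at all times, with log2 fold changes of 1.18, 1.23 and 1.13 (adjusted p = 0.0457, 0.0134 and 0.0224). Prkaca, a catalytic subunit of protein kinase A, fell by 0.64 in males at Day 3 (adjusted p = 0.0241). Adcy6 and Prkaca were picked after their values were seen. The list's median log2 fold change was 0.40 in males and 0.23 in females at Day 3, beside 0.02 and 0.03 over all genes.

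Of 18 genes that move Aqp2 to and from the membrane, 5 rose and 1 fell in males at Day 3, and 1 rose and 3 fell at Day 5, beside 24.5% and 19.2% of all genes called, which leaves 4 of 18 at Day 5 near the share of all genes. In females 0 rose and 1 fell at Day 3, where 5.54% of all genes were called, so the female count was at the share of all genes. The fallen gene at Day 3 was the membrane fusion syntaxin Stx4a in both sexes, by 0.92 in males (adjusted p = 0.0418) and 1.12 in females (adjusted p = 0.0498) on the log2 scale. Among 11 transcription factors tied to Aqp2 expression, 8 rose and 1 fell in males at Day 5, beside 8.98% and 10.2% of all genes. Elf5 (2.34), Klf5 (2.55), Gata2 (1.30), Gata3 (1.25) and the tonicity factor Nfat5 (0.98) were among those that rose on the log2 scale. The bile acid receptor Nr1h4 fell by 1.84. Gata3 is also among the principal cell markers, and the part of other cells in these male Day 5 counts was not tested. In females edgeR called 0 of the 11 at Day 2, Day 3 and Day 5, with 3, 4 and 1 at an unadjusted p under 0.05.

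Urea transporters and genes for osmolytes protect medullary cells in concentrated urine. The list read for them also holds the heat shock genes Hspa1b and Hspa4l and the kinase gene Sgk1. Of this list of 10, 6 rose and 0 fell in males at Day 5, where 8.98% of all genes rose, among them the urea transporter Slc14a2 (log2 fold change 3.04), the sorbitol-making aldose reductase Akr1b3 (2.56) and the betaine transporter Slc6a12 (2.36). At male Day 3, 2 of the 10 rose, Hspa1b (log2 fold change 0.97) and Sgk1 (0.80), and 1 fell, near the 24.5% of all genes called, with a median over the list of 0.63. At female Day 3, 0 rose and 1 fell, beside 5.54%. The gene that fell was Akr1b3 in both sexes, by 0.84 in males (adjusted p = 0.0388) and by 1.27 in females (adjusted p = 0.0467). In the test of the sexes' changes to Day 5, where 0.243% of all genes were called, Hspa1b and Sgk1 passed from this list. Hspa1b, a heat shock protein, differed by 2.49 ± 0.42 and Sgk1, a kinase of sodium transport, by 1.58 ± 0.27 (adjusted p = 0.021 for each). This test rests on the male Day 5 libraries, which stood apart as described above.

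Males and females were compared directly on each day, to ask whether sex bears on the response. At Day 3, 1 of 7 genes was higher in males (Aqp1) and 2 were lower (Aqp2 and Aqp3), where 10.6% of all genes were higher and 10.7% lower (21.3% called). Aqp1 was 1.51-fold higher in males (log2 0.60 ± 0.15, adjusted p = 0.0219), and the male range of 939 to 1003 CPM lay above the female range of 494 to 829. Aqp2 was 1.42-fold lower in males (log2 -0.50 ± 0.11, adjusted p = 0.0128) at 352 to 479 against 499.8 to 637 CPM, and Aqp3 1.30-fold lower (log2 -0.38 ± 0.09, adjusted p = 0.0167) at 77.8 to 79.4 against 87.0 to 117 CPM.

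Markers of tubule segments and other cells also differed at Day 3, where 10.6% of all genes were higher and 10.7% lower in males. Of 11 principal cell genes 8 were lower in males and 0 higher, including the sodium channel subunits Scnn1b (log2 -0.52) and Scnn1g (-0.83). Of 12 proximal tubule genes 5 were higher in males and 0 lower, and of 11 endothelial genes 7 were higher. Lower in males were 6 of 9 adipocyte, 4 of 8 urothelial and 4 of 9 thick limb genes, with 0 higher in each list, and of 10 intercalated cell genes 4 were lower and 1 higher. Their part in the aquaporin differences was not tested. The Aqp2 difference held in all 8 fits without 1 mouse, the Aqp3 difference was lost without male Day 3 mouse 2 or 3 (adjusted p = 0.057 and 0.0525), and the Aqp1 difference without male Day 3 mouse 2, 3 or 4 or female Day 3 mouse 3 or 4 (0.0546 to 0.0644). In 1 fit over all 8 groups none of the 3 passed (adjusted p 0.608 to 0.824).

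On the other days edgeR called 0 of 7 between the sexes. At Day 0 this was against 0.449% of all genes, with 1 of 7 at an unadjusted p under 0.05 and 0 by DESeq2, and Aqp2 at 295 to 719.7 CPM in males and 437 to 1192 in females was the gene closest to passing (log2 -0.89 ± 0.40, adjusted p = 0.621). At Day 2 it was against 1.47% of all genes, with 0 at an unadjusted p under 0.05 and 0 by DESeq2. At Day 5 it was against 0.276% of all genes, with 2 at an unadjusted p under 0.05 and 0 by DESeq2. Without the library labelled male Day 5 mouse 1, 3 passed at Day 5, with Aqp1 at -1.38, Aqp2 at 1.07 and Aqp11 at -2.26 on the log2 scale (adjusted p = 0.00981, 0.0326 and 0.00182). Aqp4 passed at Day 5 without female Day 5 mouse 2, where it moved from 0.76 to 1.47 (adjusted p = 0.0378), and Aqp11 passed in the fit over 8 groups (adjusted p = 0.0187).

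The changes from Day 0 were also tested against each other between the sexes. With edgeR 0 of 7 differed at Day 2 and at Day 3, where 0% and 0.0114% of all genes were called and 0 of 7 reached an unadjusted p under 0.05, and DESeq2 called 0 on both days. At Day 5, 0 of 7 differed against 0.243% of all genes, with 3 at an unadjusted p under 0.05 and 1 by DESeq2. That 1 was Aqp2, which passed with DESeq2 (1.73, adjusted p = 0.0314) and in the fit over 8 groups (1.66, adjusted p = 0.0351). For the other 6 genes no difference between the sexes in the change from Day 0 passed with all mice under any setting run. The Aqp11 difference in the change to Day 5 was -1.45 ± 0.65 with all mice (adjusted p = 0.296), and -2.43 without the library labelled male Day 5 mouse 1, when it passed (adjusted p = 0.00365).

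The other aquaporins and vasopressin receptors were low or absent in most of these kidneys. Aqp8, a channel of the proximal tubule and liver, had 3.69, 5.55, 4.77 and 1.72 CPM in male Day 0 mice, 0.542, 0.424, 0.645 and 0.272 at Day 3, and 0.168, 0, 0 and 0.421 at Day 5. In males it fell by 3.05 ± 0.44 on the log2 scale at Day 3 (adjusted p = 0.00625). It was again lower at Day 5 (adjusted p = 0.0105), with 3, 0, 0 and 3 reads in the 4 mice. In female Day 0 mice Aqp8 had 1.56, 19.4, 5.63 and 0.539 CPM, the highest in the hepatocyte-rich mouse 2, where its 12.05 FPKM lay above the female Day 0 means of Aqp7 (7.78 FPKM) and Aqp4 (4.74 FPKM). Avpr1a, the vasopressin type 1a receptor, held 26 to 507 reads per library. Its mean FPKM ran from 1.92 to 5.05 over the 8 groups, and that of Avpr2 from 0.0129 to 0.130. The Avpr2 level is uncertain because of the exon overlap described above, so the 2 receptors cannot be ranked safely. In males the log2 fold change of Avpr1a was -0.88 ± 0.20 at Day 2 (adjusted p = 0.0491). At Day 3 it was -0.65 ± 0.15 (adjusted p = 0.0214), and both were lower than at Day 0.

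Aqp5, the channel of glands and lung that lies between Aqp2 and Aqp6, held 3 to 55 reads per library. It rose in males from Day 3 to Day 5 by 1.74 ± 0.38 on the log2 scale (adjusted p = 0.00971). Aqp9, a liver glycerol channel, stood at 16.1 CPM in female Day 0 mouse 2, the library with high hepatocyte markers, and at 0.647 CPM or less in every other library. Mip reached at most 2 reads and Aqp12 at most 3 in a library, and Avpr1b was at 0 in all 32.

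The 3 protein-coding genes most like each aquaporin were found by Pearson correlation of log2 CPM over the 32 libraries among 13200 genes with a mean of at least 1 CPM. For Aqp11 they included Slc7a9 (r = 0.967) and Tmem174 (0.960). For Aqp1 they were Acad10 (0.917), Dlst (0.900) and Pm20d1 (0.897), for Aqp2 Epn3 (0.907), Sult2b1 (0.903) and Fam174b (0.896), and for Aqp6 Ajuba (0.860), Plekhg2 (0.843) and Tns2 (0.842). For Aqp3 they were D230025D16Rik (0.895), Ankrd46 (0.892) and Wsb2 (0.892), for Aqp4 Sim1 (0.862), Mecom (0.856) and Twsg1 (0.847), and for Aqp7 Zswim5 (0.909), B4gat1 (0.858) and Usp10 (0.842). These libraries share groups and depth. Over the 24 libraries without Day 5, other genes came first for Aqp2, Aqp3, Aqp4, Aqp6, Aqp7 and Aqp11, with Aldh4a1 at 0.859 for Aqp11. Only Aqp1 kept its first gene, Acad10 (0.904).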

How the data were processed

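Kidney RNA of 32 mice was sequenced with paired 150 bp reads. The authors deposited raw counts per gene and, beside them, FPKM values, with gene positions of GRCm38. The submitters' processing notes name HTSeq, DESeq2 and GRCm39, while the gene positions are those of GRCm38 for 53499 of 54409 shared gene IDs. The aligner and strand setting are not given in the sources used here. FPKM was used only to order levels between genes. The counts were tested with edgeR 4.0.16 (R 4.3.3; TMM, filterByExpr, robust quasi-likelihood fit) on the groups compared, 4 mice each, with Benjamini-Hochberg adjustment over all genes tested. CPM values use TMM factors over all 32 libraries, with a prior count of 2 on the log2 scale. The p-values measure the spread between libraries, each labelled as 1 mouse. Alternatives were DESeq2 1.42.0 (test and size factors), no filter, 1 fit over 8 groups, a replicate block, no mitochondrial transcripts, a threshold of 1.5 on the log2 fold change, and leaving out each mouse. The edgeR fit was tested on simulated data.

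The genes named are the 8 members, the other aquaporins and vasopressin receptors, genes of the pathway lists that passed in both sexes on a day, any gene of a list of 12 or fewer, and the 3 genes most correlated with each member. Adcy6 and Prkaca fall outside this rule and were named after their values were seen. The members and lists were chosen with earlier results of these data known. Some of the genes this rule names are not reported here.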

Additional observations from a re-analysis of the deposited data

Results flagged for a closer look

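The search covered 11 genes in each of the 8 groups of 4 mice, 88 sets in all. In 8 of the 88, 9.09%, the highest or lowest mouse stood farther from the others than Dixon's 95% critical value allows. Chance gives about 5% for independent sets, while these sets share the same 32 libraries. Aqp2 was at 700.4 CPM in male Day 2 mouse 4 while the other 3 mice had 302 to 358, and at 939 CPM in female Day 2 mouse 1 while the others had 335 to 399. Aqp2 was at 672 CPM in the library labelled male Day 5 mouse 1 and at 1270.1 to 1347 in the other 3, and the Xist counts of that library go against its label. Aqp6 was at 132 CPM in the same female Day 2 mouse 1, with 50.2 to 56.2 in the others. It was at 39.3 CPM in female Day 5 mouse 2, the female library richest in mitochondrial transcripts, with 68.3 to 71.5 in the others. Aqp8 was at 2.70 CPM in male Day 2 mouse 4 and at 0.205 to 0.482 in the others. Aqp9 was at 16.1 CPM, from 585 reads, in female Day 0 mouse 2, the library with high hepatocyte markers, and at 0 to 0.0270 in the others. Aqp9 in male Day 2 mouse 3 was at 0.0803 CPM, from 2 reads, with 0.205 to 0.226 in the others.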

How the results depend on the processing

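Of the 15 called values of the aquaporins, 15 passed with DESeq2's test and 15 with its size factors, 13 with no filter, 14 without mitochondrial transcripts, 9 in 1 fit over 8 groups and 8 with the replicate block, and 0 changed sign under any setting. Same-numbered mice showed no general pairing, with r of their deviations from -0.546 to 0.580 and over 0.1 in 12 of 48 pairs. Between males and females at Day 0, r was 0.372, -0.115, 0.562 and 0.580 for mice 1, 2, 3 and 4. With the block 0 members passed in males at Day 2, 0 in males at Day 3 and 0 in females at Day 3. The block lost the male Day 3 rise of Aqp1 (adjusted p = 0.0763), the Aqp6 rises at male Day 2 and Day 3, female Day 3 and from male Day 3 to Day 5 (0.0806, 0.0609, 0.142 and 0.06595), the Aqp4 rise at male Day 3 (0.0576) and the Aqp2 rise at male Day 5 (0.0553), and called the male Day 5 fall of Aqp11 (adjusted p = 0.0317). With the 1.5 threshold, 0 passed in males at Day 2, 0 in males at Day 3, 1 in males at Day 5, 0 in females at Day 3, 2 between male Day 3 and Day 5, and 0 between the sexes at Day 3. DESeq2 called 3 in males at Day 2, 4 at Day 5 (3 higher and Aqp11 lower) and 5 between male Day 3 and Day 5, 1 in females at Day 2, 2 at Day 3 and 1 at Day 5, and 1 in the difference between the sexes' changes to Day 5. With no filter 1 passed in females at Day 2. The fit over 8 groups called 2 in males at Day 2, 4 at Day 5 (Aqp11 lower), 1 in females at Day 2, 2 at Day 3 and 1 at Day 5, 0 and 1 between the sexes at Day 3 and Day 5, and 1 in the difference of changes to Day 5. The cause of these differences was not tested.

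Leaving out each mouse in turn gave 0 to 1 members in males at Day 2, 0 to 4 at Day 3, 2 to 5 at Day 5 and 2 to 6 between Day 3 and Day 5. In females it gave 0 to 1 at Day 2, 0 to 4 at Day 3 and 0 to 1 at Day 5. Between the sexes it gave 1 to 3 at Day 3 and 0 to 3 at Day 5, and 0 to 2 in the difference of changes to Day 5. The upper counts at male Day 5, with 5 and 6, the 3 between the sexes at Day 5 and the 2 in the difference came without the library labelled male Day 5 mouse 1. Of 1645 alternative values 63 changed sign, in 24 of 105 results, and 0 of the 63 passed. Their ranges on the log2 scale without 1 mouse were as follows. In males Aqp2 ran from -0.52 to 0.094 at Day 2 and from -0.39 to 0.061 at Day 3. In females Aqp11 ran from -0.30 to 0.026 at Day 2 and Aqp4 from -0.13 to 0.81 at Day 5, and Aqp4 was -0.23 without female Day 0 mouse 2 and female Day 5 mouse 2 together, a setting chosen after seeing the data. From female Day 3 to Day 5 Aqp1 ran from -0.27 to 0.080, Aqp4 from -0.93 to 0.019 and Aqp11 from -0.17 to 0.17. Between the sexes at Day 0 Aqp1 ran from -0.059 to 0.31, Aqp11 from -0.0028 to 0.21 and Aqp6 from -0.17 to 0.15 (-0.024 with no filter). At Day 2 Aqp2 ran from -0.62 to 0.18, Aqp4 from -0.26 to 0.21 (0.041 with the replicate block), Aqp3 from -0.083 to 0.25 (-0.00089 with no filter), Aqp11 from -0.18 to 0.12 and Aqp6 from -0.23 to 0.48. At Day 3 Aqp4 ran from -0.38 to 0.086, Aqp11 from -0.022 to 0.083 and Aqp6 from -0.090 to 0.016. In the difference of changes to Day 2 Aqp1 ran from -0.15 to 0.37, Aqp7 from -0.23 to 0.016, Aqp11 from -0.29 to 0.025 and Aqp6 from -0.27 to 0.47, and to Day 3 Aqp11 ran from -0.17 to 0.045 and Aqp6 from -0.21 to 0.13. Avpr2 held 14 reads or fewer in every library, and the reason for its low counts was not tested.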
